A study of Mus musculus with 28 samples.

Results

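The response that macrophages still showed 16 h after meeting von Willebrand factor was measured by comparing 5 VWF-treated with 5 control cultures of murine bone marrow-derived macrophages (BMDMs). These 10 cultures were chosen by their labels (treatment VWF or PBS, time 16 h) out of 28 cultures in the series. All 28 were grown from marrow of young adult C57/B6JB mice in medium with M-CSF, washed, and given fresh medium with calcium chloride. VWF 16 h cultures received 10 µg/ml of human plasma-derived VWF (pd-VWF) and Control 16 h cultures received PBS. The 5 VWF and 5 control cultures taken at 3.5 h, with the same agents and dose, served to separate what remained from what appeared late, and 4 cultures given 100 ng/ml of bacterial lipopolysaccharide (LPS) for 16 h are quoted beside them. The labels call the replicates biological, but do not say whether they came from separate mice, so the p-values measure the spread between these cultures only. All 22 genes of a macrophage marker list had counts in both groups. Limits of the model are that the VWF is human and the cells murine, and that BMDMs were grown without other cell types added. The purity of the cultures is known only through the marker genes given below.

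VWF is a large multimeric plasma protein, released by endothelium and platelets, that tethers platelets to injured vessel walls and carries factor VIII. Macrophages bind it and clear it through scavenger and lipoprotein receptors. When macrophages are activated, NF-κB drives a first wave of cytokines and chemokines that is switched off within hours by induced inhibitors, while interferon-β made in that wave acts back on the cells through its receptor to raise a second set of interferon-stimulated genes. Genes measured many hours after the stimulus therefore belong to sustained, secondary or recovering programmes, and a change between 3.5 h and 16 h can come from the treated cells, the control cells or both.

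Total counts of the 10 cultures lay between 49077751 and 77699206. Control 16 h replicate 5 stood apart from its group. Its mean correlation with the other 4 controls was 0.900, against 0.967 to 0.969 for those 4, over 8660 genes on the log2 CPM scale. It had counts in 16690 genes against 19184 to 19976, and 9.52% of its counts lay in ribosomal protein genes against 4.99% to 5.76%. The VWF 16 h cultures correlated at 0.971 to 0.988 with each other. Results that rest on this culture are given with and without it. Markers of other cell types stayed low in both groups: the summed level of 8 neutrophil genes was 8.30 to 22.8 CPM in control and 15.4 to 37.9 CPM in VWF-treated cultures, with Ly6g at 0 counts in all 10, against 19499 to 34929 CPM for the macrophage list. Of 3 neutrophil genes that passed the expression filter, 1 was called higher and none lower. Summed levels did not overlap for 6 osteoclast genes (37.1 to 66.9 CPM in control, 76.6 to 122.1 CPM in VWF-treated cultures, 1 called higher and 1 lower of 3 tested), 5 endothelial genes (22.004 to 33.2 and 10.2 to 15.3 CPM, all under the expression filter and not tested) and 6 B cell genes (12.6 to 22.5 and 8.79 to 11.7 CPM, 1 called lower of 2 tested). Lists of T, NK, dendritic, mast, erythroid and megakaryocyte cells stayed under 6 CPM, and 6 stromal genes summed to 22.5 to 317 CPM with overlap. Their part in the results was not tested. In bulk RNA, fewer cells of one kind and less RNA per cell cannot be told apart.

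At 16 h, 7798 genes reached a TPM (length-scaled transcript abundance) of 10 in at least 1 of the 10 cultures and were tested. A gene was called when the adjusted p of edgeR's quasi-likelihood test was under 0.05 and the absolute log2 fold change was over 1. VWF-treated cultures were called higher in 355 genes (4.55% of those tested) and lower in 324 (4.15%), together 8.71%, with a median log2 fold change of −0.03 over all genes. Counts of list members at 16 h stand against these shares, and the lists were chosen with earlier results of these data known. The 5 VWF-treated cultures did not overlap the 5 controls in 340 of the 355 higher genes and in 300 of the 324 lower genes. Non-overlap was seen in 24.6% of all genes tested. Without Control 16 h replicate 5, 366 genes were called higher and 323 lower of 7696 tested. Of the earlier calls, 337 of the 355 and 280 of the 324 were called again, and none turned direction.

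Most genes that stood higher at 16 h had already been higher at 3.5 h, whereas most of those that stood lower had not been called lower before. Of the 355 higher genes, 223 were called higher at both times, and of the 324 lower genes 65 were called lower at both. Whether a gene was late was decided by a test of the difference itself, the interaction of VWF treatment with time over 20 cultures, which called 1171 of 8660 genes (13.5%), 474 of them upwards (5.47%) and 697 downwards (8.05%). A gene was termed late when it was called at 16 h, not at 3.5 h, and in the interaction in the same direction. There were 64 late genes among the higher and 112 among the lower. A further 19 higher and 24 lower genes met the interaction test but had been under the expression filter at 3.5 h. For 33 higher and 79 lower genes called at 16 h only, the difference from 3.5 h was not shown. A total of 5 genes were called lower at 3.5 h and higher at 16 h, and 16 the reverse. With library sizes alone in place of TMM factors, the interaction gave 612 calls upwards and 570 downwards, and the median interaction of all genes moved from −0.01 to 0.14 on the log2 scale. These classes use the same 16 h contrast, so their sizes describe it.

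**Figure D1:**
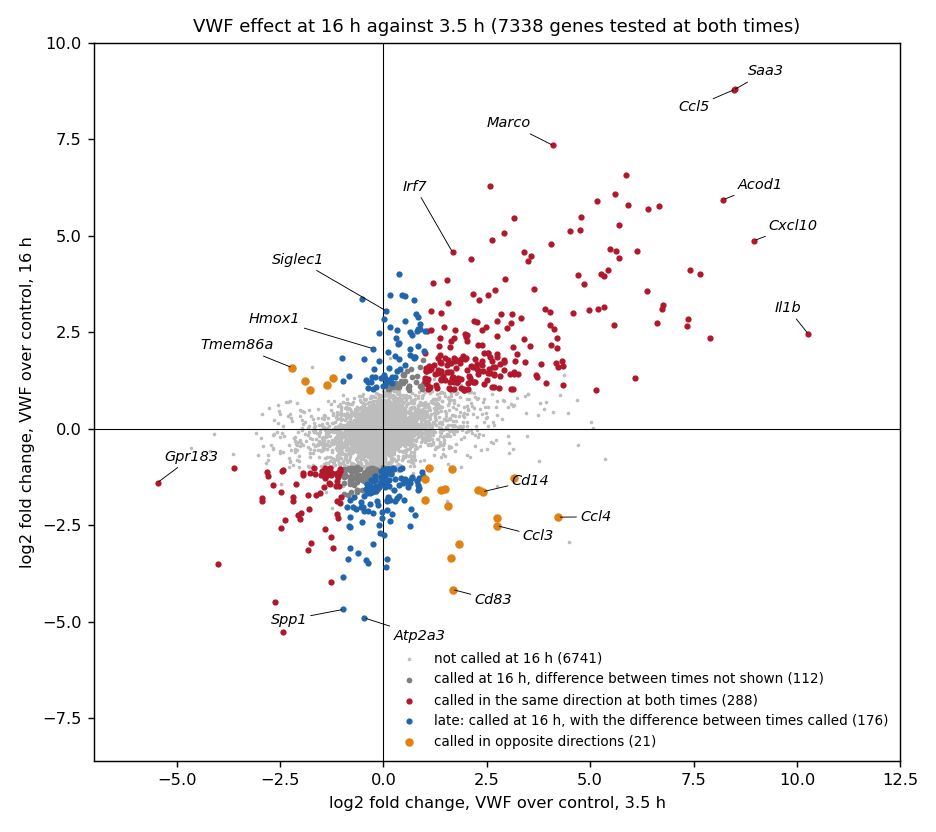
Log2 fold change of VWF over control at 16 h (vertical axis) against 3.5 h (horizontal axis) for the 7338 genes tested at both times, coloured by class. The 288 genes called in the same direction at both times lie towards the upper right and lower left, the 176 late genes lie between −1 and 1 or were not significant at 3.5 h, and the 21 genes called in opposite directions lie at the upper left and lower right.

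Control cultures moved between the times as well. In the 64 late higher genes the median change from 3.5 h to 16 h was −0.75 on the log2 CPM scale in control and 1.09 in VWF-treated cultures, and in 26 of them the control mean moved further than the VWF mean. In the 112 late lower genes the medians were 0.34 and −1.23, and the control moved further in 24. Both sets were chosen by the interaction, which is built from the same 4 groups. The choice therefore set part of these movements, and they are given as descriptions only. For the 24 lower genes that had been under the filter at 3.5 h, control cultures rose by a median of 1.55 while VWF-treated cultures changed by −0.59. Control cultures rose by over 1 in 19 of these 24 genes and VWF-treated cultures fell by over 1 in 10. A gene lower with VWF that was under the filter at 3.5 h would pass it at 16 h mainly through the controls. The filter therefore set part of this rise in control cultures, and it is given as a description only.

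Ccl5, Saa3 and Lcn2, which encode secreted proteins, were among the genes higher at both times. Ccl5, the chemokine RANTES that draws T cells and monocytes, was at 2.13, 2.17, 1.98, 3.32 and 2.86 CPM (scaled counts, corrected by TMM factors) in control replicates 1 to 5 and at 1013, 1263, 1213, 1405 and 649.9 CPM in VWF replicates 1 to 5. All VWF-treated cultures lay above all controls by more than 100 times (log2 fold change 8.79, SE 0.30, adjusted p = 6.99e-08). The log2 fold change at 3.5 h had been 8.50, and the interaction was not called. Saa3, a serum amyloid A made by activated macrophages, was at 7.40, 5.55, 2.24, 6.48 and 37.8 CPM in control and 5209.9, 6559, 4801, 6806 and 2460.4 CPM in VWF-treated cultures. The highest control was replicate 5, and without it the log2 fold change rose from 8.78 (SE 0.90) to 9.88. Saa3 was also among the 6 most abundant of the higher genes per transcript length, with a mean of 5441 TPM after VWF. Lcn2, the siderophore-binding lipocalin of the acute phase, averaged 0.908 ± 0.901 CPM in control and 84.5 ± 20.5 CPM in VWF-treated cultures (SD, n = 5; log2 fold change 6.58, SE 0.70, adjusted p = 5.60e-05).

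Marco, a scavenger receptor for bacteria and particles, gained further between the times. Its control cultures held 5.50, 5.14, 5.96, 8.43 and 7.08 CPM and its VWF-treated cultures 757, 1085, 1239, 876 and 1273 CPM, without overlap (log2 fold change 7.34, SE 0.24, adjusted p = 6.99e-08). The log2 fold change had been 4.10 at 3.5 h, and the interaction of 3.26 was called (adjusted p = 5.80e-08). Ms4a4c, a 4-span membrane protein of the MS4A family, did likewise, with 2.58 at 3.5 h and 6.29 at 16 h. Of the 223 genes higher at both times, the interaction was called upwards in 17 and downwards in 63 and was not called in 143, with medians of 2.48 at 3.5 h and 1.80 at 16 h. Other sustained genes with large changes were the formyl peptide receptors Fpr2 (6.08, SE 0.29) and Fpr1 (5.77, SE 0.44), which sense bacterial and tissue-damage peptides, Slfn1 (5.91, SE 0.53), a schlafen protein tied to growth arrest in leukocytes, and Acod1 (5.93, SE 0.62), which makes itaconate. The Acod1 effect was smaller than at 3.5 h (8.22; interaction −2.25), as VWF-treated cultures fell from 4541 ± 630.0 to 295 ± 76.4 CPM (SD, n = 5). Control 16 h replicate 4 held 12.6 CPM of Acod1, above the other controls.

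**Figure D2:**
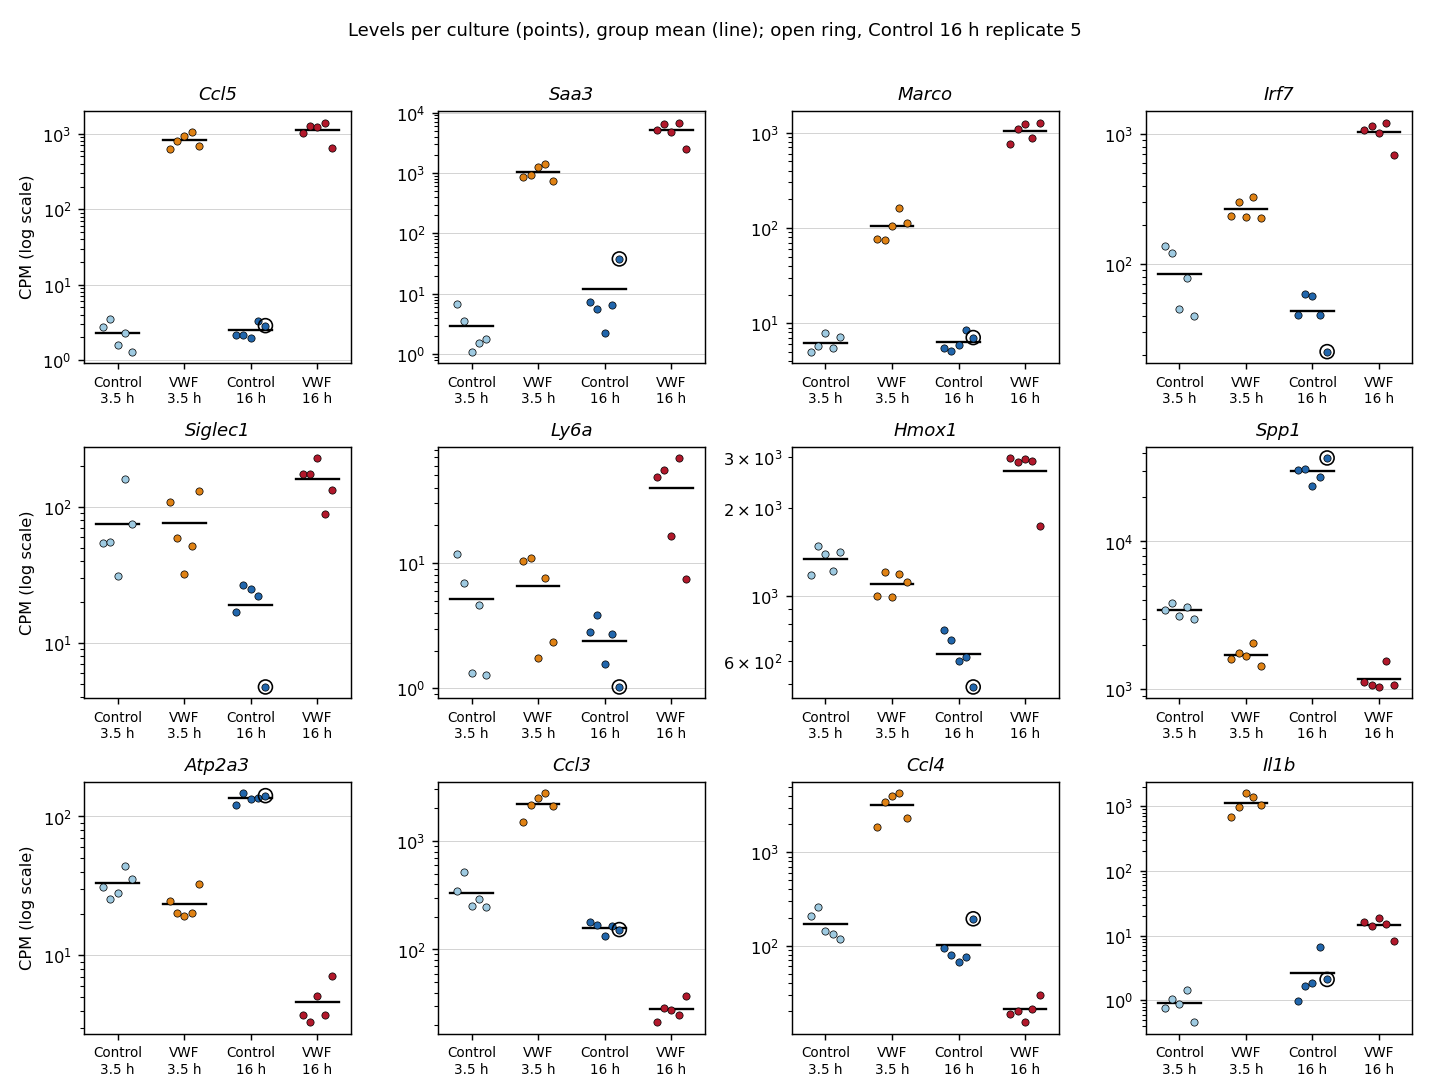
Level of 12 genes in each culture, in CPM on a log axis, for the control and VWF groups at 3.5 h and 16 h, with points for cultures, lines for group means and a ring around Control 16 h replicate 5. Ccl5 and Saa3 stayed high after VWF, Marco and Irf7 rose further, Siglec1, Ly6a and Hmox1 were called at 16 h and not at 3.5 h, Spp1 and Atp2a3 rose in control but not in VWF-treated cultures, Ccl3 and Ccl4 crossed from above to below control, and Il1b fell most of the way back.

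The broadest block of genes that remained was that of interferon-stimulated genes. Of 46 tested antiviral genes, 43 were called higher and none lower (median log2 fold change 2.58, against −0.03 over all genes), after 43 of 47 at 3.5 h, where 9.18% of all genes were called higher. At 16 h, 40 of these 43 had been higher at 3.5 h, and 2 were late. Of 20 interferon-inducible GTPases, which attack vacuoles of intracellular pathogens, 8 reached the expression filter at 16 h and were called higher, and the other 12 were not tested. At 3.5 h 12 had been tested and called higher, of which 4 had dropped under the filter by 16 h, 3 of them with the interaction called downwards. As a gene could pass the filter through the VWF-treated cultures alone, these counts are partly set by it. The mean log2 CPM over the 46 antiviral genes was 3.51 to 4.39 in control and 6.24 to 6.91 in VWF-treated cultures, with VWF 16 h replicate 5 the lowest of the latter. This mean covers only the 46 of 48 genes that passed the filter, so it is subject to the same limit. Without Control 16 h replicate 5 the counts were again 43 of 46 and 8 of 8.

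To show what promoters of this block look like, windows from 250 bases before to 50 bases after the start site were taken from RefSeq on GRCm38.p6. The capitals mark the core of the interferon-stimulated response element (ISRE), GAAANNGAAA on either strand, to which interferon regulatory factors bind, where neighbouring matches may overlap. Isg15 and Ifit3 are shown as genes higher at both times, and Cxcl10 as one whose level after VWF fell steeply between the times but stayed above control. Bst2 and Ifitm3 are shown as the 2 late members of the antiviral list. All are written 5′ to 3′ on the strand of the gene.
Isg15 (chr4:156200769-156201068, minus strand): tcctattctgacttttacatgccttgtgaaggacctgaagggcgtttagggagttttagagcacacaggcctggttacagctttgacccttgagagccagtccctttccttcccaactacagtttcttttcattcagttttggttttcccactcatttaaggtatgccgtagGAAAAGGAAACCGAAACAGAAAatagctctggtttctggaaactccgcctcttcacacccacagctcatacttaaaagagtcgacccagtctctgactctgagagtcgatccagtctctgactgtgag
Ifit3 (chr19:34583279-34583578, plus strand): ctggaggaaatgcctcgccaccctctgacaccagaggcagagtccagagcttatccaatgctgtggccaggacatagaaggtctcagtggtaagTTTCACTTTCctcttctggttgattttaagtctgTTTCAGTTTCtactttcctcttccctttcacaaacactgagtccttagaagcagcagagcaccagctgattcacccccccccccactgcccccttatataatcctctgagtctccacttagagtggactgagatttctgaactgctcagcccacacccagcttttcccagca
Cxcl10 (chr5:92348840-92349139, minus strand): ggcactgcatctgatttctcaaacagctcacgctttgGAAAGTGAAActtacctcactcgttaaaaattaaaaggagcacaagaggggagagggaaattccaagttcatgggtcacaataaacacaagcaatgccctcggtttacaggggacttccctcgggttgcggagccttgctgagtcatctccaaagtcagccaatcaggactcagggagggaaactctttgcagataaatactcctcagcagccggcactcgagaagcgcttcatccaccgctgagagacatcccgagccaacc
Bst2 (chr8:71537423-71537722, minus strand): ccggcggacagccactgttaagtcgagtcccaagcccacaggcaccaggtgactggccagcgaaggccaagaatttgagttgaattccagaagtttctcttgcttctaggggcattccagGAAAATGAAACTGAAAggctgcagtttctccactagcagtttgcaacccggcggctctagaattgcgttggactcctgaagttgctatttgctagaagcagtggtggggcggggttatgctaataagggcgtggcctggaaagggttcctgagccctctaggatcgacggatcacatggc
Ifitm3 (chr7:141010695-141010994, minus strand): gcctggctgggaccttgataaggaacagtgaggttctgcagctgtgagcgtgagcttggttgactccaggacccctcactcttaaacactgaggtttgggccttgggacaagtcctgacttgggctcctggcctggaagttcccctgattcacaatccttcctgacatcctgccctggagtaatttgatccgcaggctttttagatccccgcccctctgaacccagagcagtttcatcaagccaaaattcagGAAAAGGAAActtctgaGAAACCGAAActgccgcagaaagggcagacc
The matches began 78, 72 and 66 bases before the start in Isg15, 156 and 122 bases before it in Ifit3, 213 bases before it in Cxcl10 and 130 and 124 bases before it in Bst2, and at positions 3 and 20 after the start in Ifitm3.

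An ISRE core stood in the window of 58 of 282 genes called higher at 16 h that had a window (20.6%) and in 12 of 239 called lower (5.02%). It stood in 4.43% of 6140 tested genes and 3.99% of all 27025 genes with a window. The share was 23.2% in genes higher at both times (42 of 181), 22.4% in late higher genes (11 of 49), and 8.90% in genes that were higher at 3.5 h and not called at 16 h (25 of 281). Of the antiviral genes it was held by 22 of 36. The late genes with a core included Gm5150, Aif1, Slamf8, Pilra, Bst2 and Ifitm3. The NF-κB core GGGANTTTCC was found in 6 of the 282 higher genes (2.13%) and in 0.505% of genes tested, and the gamma-activated sequence TTCNNNGAA in 13.1% and 7.87%. These shares are descriptions, and a match is not a measured binding site. One of the higher genes with the NF-κB core was Nfkbia, the IκBα inhibitor that switches NF-κB off, with the match shown in capitals, which began 29 bases before the start.
Nfkbia (chr12:55492598-55492897, minus strand): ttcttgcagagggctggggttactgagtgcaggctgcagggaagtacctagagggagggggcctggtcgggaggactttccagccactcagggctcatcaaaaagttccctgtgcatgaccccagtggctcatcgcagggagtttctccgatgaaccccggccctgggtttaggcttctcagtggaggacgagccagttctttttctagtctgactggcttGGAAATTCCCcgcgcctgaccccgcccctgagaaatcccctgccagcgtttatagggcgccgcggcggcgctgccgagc

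Within the interferon block the effectors differed in how far they had come down. Isg15, a ubiquitin-like modifier, was at 10.5, 12.7, 17.04, 10.1 and 14.04 CPM in control and 338, 354, 287, 410.0 and 195 CPM in VWF-treated cultures, without overlap (log2 fold change 4.61, SE 0.24, adjusted p = 9.57e-07; 5.62 at 3.5 h). Ifit3, which binds viral RNA complexes, was at 8.10 ± 3.38 and 314 ± 91.6 CPM (SD, n = 5; log2 fold change 5.27, SE 0.36, adjusted p = 2.84e-06), and 31.5% of its 100-base windows also occur in its neighbour Ifit3b, so reads could be split between them. Rsad2, the antiviral enzyme viperin, had fallen from 6.74 at 3.5 h to 3.10 at 16 h, Cmpk2 from 6.61 to 2.75, and Mx1, a GTPase against influenza virus, from 6.77 to 3.21, all with the interaction called. Cxcl10, the interferon-induced chemokine for T cells, went from 3594 CPM after 3.5 h to 21.5 CPM after 16 h of VWF, while its log2 fold change went from 8.97 to 4.88. In contrast, Oas3, an RNA-sensing synthetase, gained from 1.16 to 2.55 and Ifi44 from 2.92 to 5.08, with the interaction called for both.

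Among the factors that act on these genes, Irf7, the interferon regulatory factor that amplifies type I interferon, was at 40.4, 58.5, 56.998, 40.4 and 21.1 CPM in control and 1085, 1161, 1031, 1230.3 and 698 CPM in VWF-treated cultures (log2 fold change 4.57, SE 0.31, adjusted p = 2.67e-06). It had been at 1.67 at 3.5 h, and the gain was called (2.92, adjusted p = 3.22e-05). Control 16 h replicate 5 was the lowest control, and without it the 16 h value was 4.39. Stat2, which acts below the interferon receptor, was higher (1.93, SE 0.36). Of 25 tested genes of interferon signalling and nucleic acid sensing, 6 were higher and none lower, after 16 of 27 at 3.5 h. Besides Irf7 and Stat2 these included the RNA sensors Ddx58 (2.39), Ifih1 (1.67) and Dhx58 (2.28). The other interferon regulatory factors of the list were not called. Irf9 came closest, at 0.93 (SE 0.11, adjusted p = 0.000111), which was under the fold threshold, and Irf1, Irf2, Irf3, Irf5 and Irf8 had log2 fold changes of 0.56, −0.05, 0.06, 0.10 and 0.42. Stat3 was at 0.14 and was not called. The receptor and kinase genes of the list had log2 fold changes of 0.76 (Ifnar1), 0.65 (Ifnar2), 0.04 (Jak1) and 0.08 (Tyk2) and were not called, and Ifnb1, which encodes interferon-β and had been higher at 3.5 h (6.64), was under the expression filter at 16 h.

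Of the 2 late members of the antiviral list, Bst2, the tetherin that holds budding virus at the cell surface, was at 215, 205, 259, 199 and 647 CPM in control and 1698, 1671, 1325, 2762 and 1226 CPM in VWF-treated cultures (log2 fold change 2.51, SE 0.38, adjusted p = 0.000572). The highest control was replicate 5, and without it the value was 2.97. Ifitm3, which blocks virus entry from endosomes, rose from 223 ± 36.8 to 994 ± 169 CPM (SD, n = 5; log2 fold change 2.15, SE 0.16, adjusted p = 5.35e-06). Their 3.5 h values were 0.65 and 0.83, and both interactions were called.

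**Figure D3:**
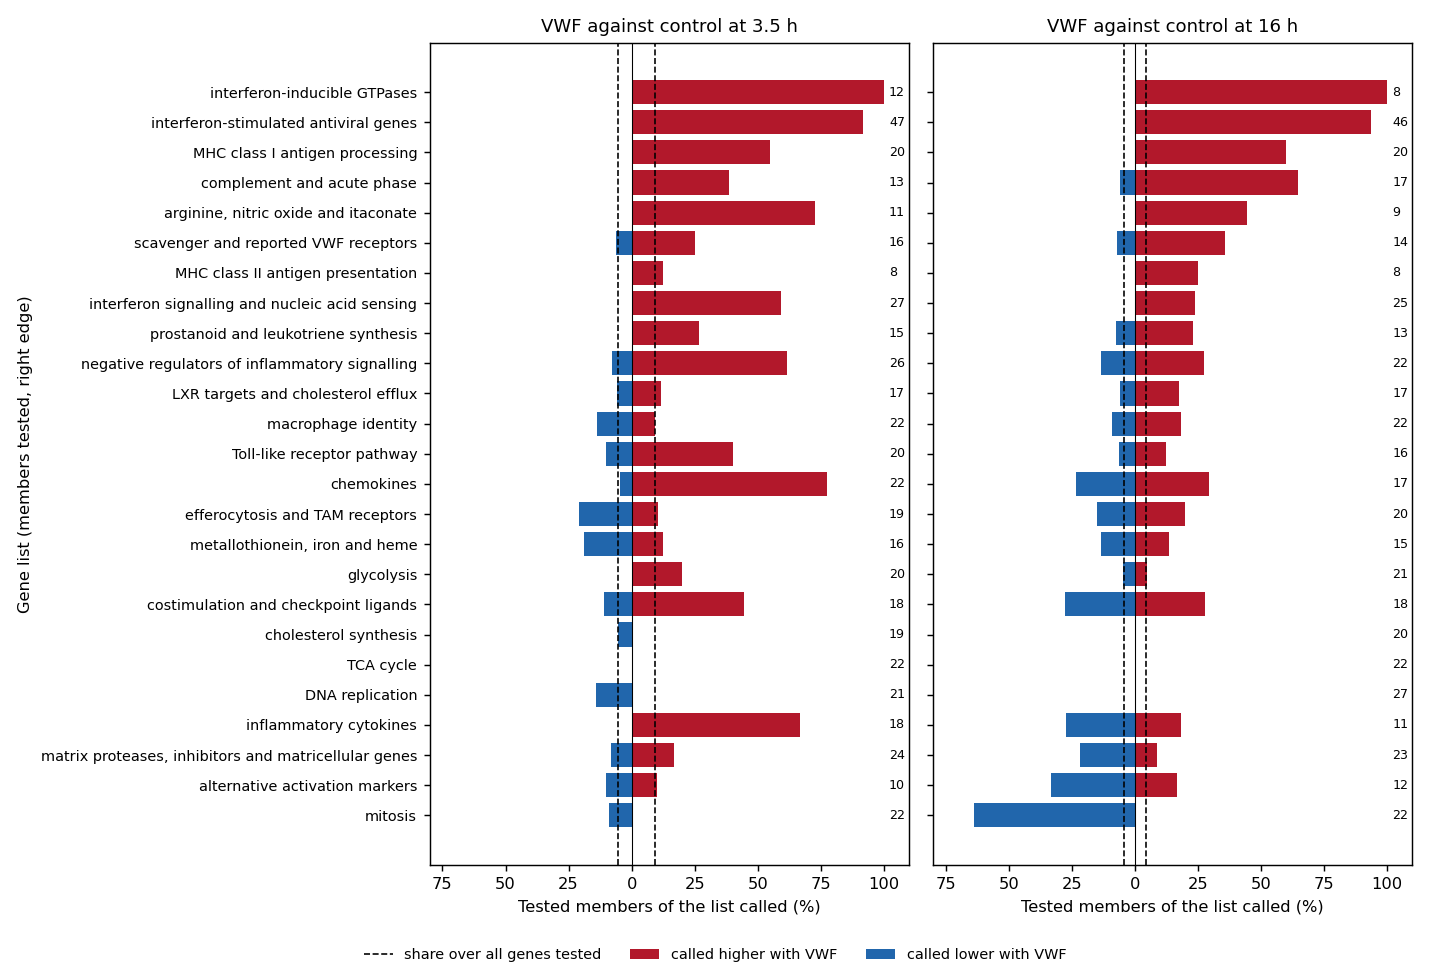
Share of the tested members of 25 gene lists called higher (right, red) and lower (left, blue) with VWF at 3.5 h and at 16 h, with the number of members tested at the right edge and dashed lines at the shares over all genes tested (9.18% and 5.52% at 3.5 h, 4.55% and 4.15% at 16 h). Interferon and MHC class I lists stayed far above the background, inflammatory cytokines and chemokines had fewer members called higher than at 3.5 h, and of the 25 lists mitosis had the largest share of lower members at 16 h.

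Antigen presentation and complement genes accompanied the interferon block. Of 20 MHC class I processing genes 12 were higher and none lower (median 1.07), among them the peptide transporter Tap1 (1.52, SE 0.17), its partner Tapbp (1.70, SE 0.17) and the immunoproteasome subunit Psmb8 (1.27, SE 0.26). Of 8 MHC class II genes 2 were higher, H2-Ab1 (1.57) and H2-Eb1 (1.23). Of 17 complement and acute phase genes 11 were higher and 1 lower, with a median of 2.52, against 5 of 13 higher at 3.5 h. The other 9 of the 26 genes on the list were under the filter at 16 h. Of the 11, 4 had been under it at 3.5 h, and members such as Cfb passed it through the VWF-treated cultures alone, so the filter set part of both counts. C3, the central complement component, was at 12.9, 13.99, 9.48, 13.2 and 2.28 CPM in control and 228, 244, 332, 156 and 197 CPM in VWF-treated cultures (log2 fold change 4.47, SE 0.46, adjusted p = 4.68e-05). Hp, the haptoglobin that binds free haemoglobin, rose from 1.93 ± 0.829 to 85.5 ± 25.1 CPM (SD, n = 5; 5.47). C1qa, a subunit of the first complement component, was at 584, 620.4, 607, 546 and 1455 CPM in control, where replicate 5 was more than 2 times any other, and at 2174, 2301, 1456, 3229 and 1577 CPM in VWF-treated cultures (log2 fold change 1.49, SE 0.32, adjusted p = 0.00505; 1.85 without that control). The lowest VWF-treated culture lay only just above that control. Its partners C1qb (0.83, adjusted p = 0.000358) and C1qc (0.77, adjusted p = 0.00225) were under the fold threshold. Cfb, complement factor B, had no counts in 4 controls and 2 counts in Control 16 h replicate 4, against 4.89, 4.89, 10.7, 2.56 and 3.62 CPM in VWF-treated cultures, so no fold is given, and 80.8% of its windows are shared with Gm20547.

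**Figure D4:**
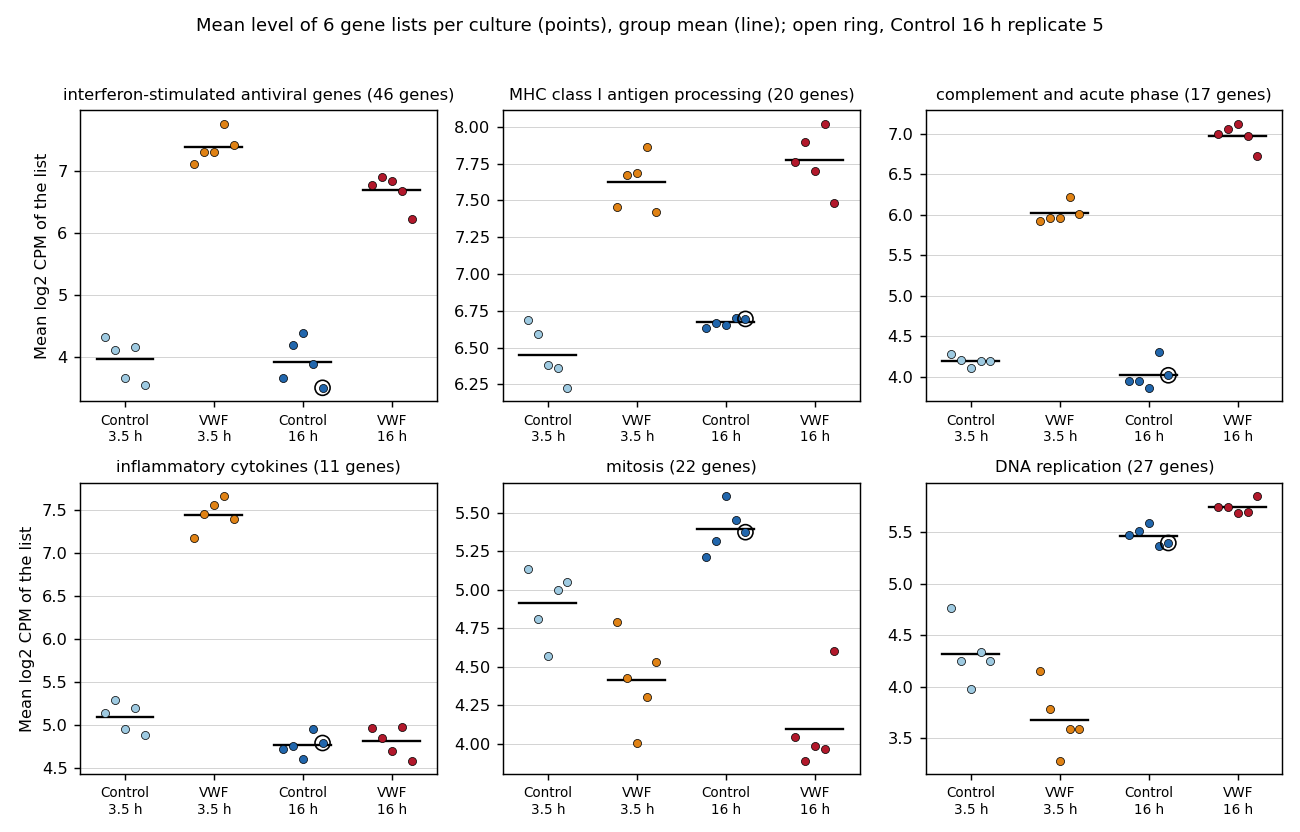
Mean log2 CPM of 6 gene lists in each culture of the control and VWF groups at 3.5 h and 16 h (points), with group means (lines) and a ring around Control 16 h replicate 5. After 16 h of VWF the antiviral, MHC class I and complement lists lay above every control culture, the inflammatory cytokine list overlapped the controls, and the mitosis list lay below every control culture at 16 h. Only members that passed the filter at 16 h were averaged, 46 of 48 antiviral, 20 of 20 MHC class I and 17 of 26 complement genes. As a gene could pass through 1 group alone, the filter could set part of the separation where it dropped members.

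The late genes with the largest interactions included several membrane proteins of the leukocyte surface. Siglec1, the sialic acid receptor CD169 of macrophages in contact with blood and lymph, was at 16.9, 26.5, 24.8, 21.99 and 4.76 CPM in control and 175, 173, 228, 88.8 and 133 CPM in VWF-treated cultures (log2 fold change 3.06, SE 0.44, adjusted p = 0.000421). At 3.5 h its means had been 74.97 ± 49.6 and 76.3 ± 41.1 CPM (SD, n = 5), so the control fell to its 16 h level while VWF-treated cultures rose. Without replicate 5, the lowest control, the value was 2.81. Ly6a, the surface protein Sca-1, was at 2.80, 3.88, 1.57, 2.70 and 1.02 CPM and 48.99, 55.2, 16.4, 68.95 and 7.48 CPM, with VWF replicates 3 and 5 well under the other 3 (log2 fold change 4.01, SE 0.63, adjusted p = 0.000775). Late members of the MS4A family were Ms4a4a (3.47, SE 0.53; interaction 3.06) and Ms4a6b (3.45, SE 0.27; interaction 2.95). Ly6i, another Ly6 protein, averaged 16.8 ± 7.23 CPM after VWF (SD, n = 5), against at most 9 counts in any control and 0 in 2 of them. It had been under the filter at 3.5 h. Further late genes were Olfml3 (3.35), a secreted olfactomedin-domain protein, Tmeff1 (3.47), Gm5150 (2.84) and Pald1 (1.84), which reached interactions of 3.90, 3.35, 2.85 and 2.85.

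Several macrophage markers were also late. All 4 higher genes of the 22-gene identity list were late: Fcgr1, the high-affinity receptor for IgG (2.89, SE 0.23), Aif1, the actin-binding protein IBA1 (2.62, SE 0.20), Adgre1, which encodes F4/80 (1.80, SE 0.21), and Itgam, which encodes CD11b (1.18, SE 0.09). Itgam shares 70.8% of its windows with the gene model Gm49368. Adgre1 stood at 797, 954, 857, 853 and 491 CPM in control and 2749, 2924, 3288, 1893 and 3001 CPM in VWF-treated cultures, without overlap. Cd14 and Lgals3 of the same list were lower, and the other 16 were not called, beside 4.55% of all genes tested called higher and 4.15% lower. Outside that list, Cx3cr1, the fractalkine receptor, was higher (1.26, SE 0.29) and late.

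Of 15 metallothionein, iron and heme genes 2 were higher and 2 lower, and of 9 arginine, nitric oxide and itaconate genes 4 were higher and none lower. Over all genes tested, 4.55% were higher and 4.15% lower. Fth1, the ferritin heavy chain that stores iron, was at 14488, 13006, 13296, 13649.5 and 16865 CPM in control and 36545, 38034, 35992, 44456 and 33584 CPM in VWF-treated cultures (log2 fold change 1.40, SE 0.12, adjusted p = 8.94e-06), but its interaction of 0.91 did not reach the fold threshold. Hmox1, the heme oxygenase, was at 767, 705, 597, 616 and 487 CPM in control and 2979.6, 2889, 2946, 2907 and 1734 CPM in VWF-treated cultures, and VWF replicate 5 was far under the other 4 yet above every control (log2 fold change 2.08, SE 0.18, adjusted p = 1.65e-05; interaction 2.35). In the opposite direction, Slc40a1, the iron exporter ferroportin, fell from 106 ± 23.4 to 22.998 ± 15.02 CPM (SD, n = 5; −2.22), as did Mt1, a metal-binding metallothionein, from 1111 ± 658 to 172 ± 42.3 CPM (−2.69; −2.28 without Control 16 h replicate 5, which held 2265 CPM). Nr1h3, the oxysterol receptor LXRα, rose late (2.56, SE 0.11), and the cholesterol exporter Abca1 was higher at both times (1.42), while 13 of the 17 LXR and efflux genes were not called. Scd2, a fatty acid desaturase, turned from −1.90 at 3.5 h to 1.24 at 16 h. Arg1, arginase 1, which competes with nitric oxide synthase for arginine, was at 1.70, 0.952, 0.803, 0.488 and 0.213 CPM in control and 113, 56.5, 33.3, 43.9 and 5.32 CPM in VWF-treated cultures (log2 fold change 5.88, SE 0.82, adjusted p = 0.000346). The VWF-treated cultures spread widely but lay above every control. Ass1, which regenerates arginine from citrulline, was higher at both times (4.88, SE 0.38), with 38.8% of its windows shared with Gm5424.

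The most abundant of the lower genes was Spp1, which encodes osteopontin, an adhesive phosphoprotein secreted by macrophages. It lies on chromosome 5, 104435118 to 104441050 (GRCm38). It was at 30459, 30769.8, 23720.0, 27308 and 36765 CPM in control and 1126, 1065, 1035, 1548 and 1071 CPM in VWF-treated cultures (log2 fold change −4.68, SE 0.18, adjusted p = 9.59e-08), a 25.6-fold lower level. At 3.5 h the means were 3410.3 ± 342 and 1705 ± 229 CPM (SD, n = 5), with a log2 fold change of −0.97. Control cultures thus rose between the times and VWF-treated cultures did not. Per transcript length it averaged 52186 TPM in control, and 18.8% of its exons overlap the gene model Gm42793. Ccl24, the eosinophil chemokine eotaxin-2, was at 14.9, 11.2, 7.44, 8.82 and 11.9 CPM in control and 0.0629, 0.0118, 0.0476, 0 and 0.0549 CPM in VWF-treated cultures, where no culture had more than 4 counts (log2 fold change −8.23, SE 0.46, adjusted p = 1.22e-06, a size that depends on the prior count of the fit). Serpinb1a, an inhibitor of neutrophil proteases, fell from 12.6 ± 2.49 to 0.151 ± 0.126 CPM (SD, n = 5; −6.43), and Tnfsf8, the CD30 ligand, from 29.3 ± 11.3 to 0.778 ± 0.167 CPM (−5.24). These 3 had been under the expression filter at 3.5 h, when their control means were 2.02, 1.28 and 6.78 CPM.

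Among the other lower genes, Atp2a3, the calcium pump SERCA3, was at 121, 147, 135, 137 and 141 CPM in control and 3.69, 3.30, 5.11, 3.74 and 7.08 CPM in VWF-treated cultures (log2 fold change −4.90, SE 0.22, adjusted p = 4.51e-07; −0.46 at 3.5 h). Rcan1, an inhibitor of calcineurin, was late and lower (−3.37, SE 0.10), and Nr4a1 (−4.48) and Egr2 (−3.96), nuclear factors induced by growth and activation signals, were lower at both times. Csf1, which encodes M-CSF, the factor used to grow the macrophages, was at 244, 260.3, 150.3, 247 and 104 CPM in control and 43.2, 25.1, 15.8, 19.6 and 14.7 CPM in VWF-treated cultures (log2 fold change −3.10, SE 0.37, adjusted p = 0.000127). Its 3.5 h value of −0.82 was under the fold threshold. Also lower were Cd9, a tetraspanin (−2.42), Pparg, the lipid-sensing nuclear receptor (−2.33), Atp6v0d2, a subunit of the proton pump used in fusion of macrophages and osteoclasts (−2.51), the scavenger receptor Cd36 (−1.13, SE 0.12), and Lgals3, or galectin-3 (−1.12, SE 0.14). Lpl, lipoprotein lipase, was called lower (−1.17, adjusted p = 0.00811), but its control cultures held 5721, 5875, 5694, 6445 and 11864 CPM, and without replicate 5 the value of −0.91 lay under the fold threshold (adjusted p = 0.00451).

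Plek, which encodes pleckstrin, a protein kinase C substrate of platelets and leukocytes, was late and went from 1197, 1313, 862, 1102 and 902 CPM in control to 225, 229, 251, 207 and 237 CPM in VWF-treated cultures (log2 fold change −2.24, SE 0.14, adjusted p = 1.46e-06; interaction −2.97). Other late lower genes were Ephx1, an epoxide hydrolase (−3.47), Ramp1, a subunit of the CGRP receptor (−3.39), Plxdc2 (−3.38) and Ndrg1 (−2.53). Tspan13, a tetraspanin, held 60.7, 57.7, 57.97, 58.4 and 119 CPM in control, with replicate 5 about 2 times the others, and 4.87, 5.00, 5.02, 6.98 and 7.99 CPM in VWF-treated cultures (−3.57; −3.31 without that control). Plau, the urokinase plasminogen activator, was lower at both times (−2.39 and −2.37), whereas the matrix metalloproteinases Mmp9 (3.78) and Mmp14 (4.36) were higher at both. Altogether 2 of 23 matrix and serpin genes were higher and 5 lower (7 lower without Control 16 h replicate 5), beside 4.55% and 4.15% of all genes tested. Of the 12 alternative activation markers, 2 were higher (Arg1 and Il4ra) and 4 lower (5 without that control), including Clec10a (−1.76) and Clec7a (−1.49), and Mrc1 fell short of the fold threshold (−0.94, adjusted p = 0.0124).

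Genes of cell division separated into 2 groups late after VWF. Of 22 mitosis genes 14 were called lower and none higher (median −1.33), whereas none of 27 DNA replication genes was called in either direction by edgeR or DESeq2 (median 0.32). Without the fold threshold, at an adjusted p under 0.05, 20 mitosis genes were lower and none higher, while 13 replication genes were higher and 1 lower. By that rule 1019 of all 7798 genes tested were higher and 1144 lower. At an unadjusted p under 0.05 the counts of the 2 lists were 21 and 0, and 15 and 1. The share over all genes at an unadjusted p was not computed, so these last counts have no background. At 3.5 h, 2 of 22 mitosis and 3 of 21 replication genes had been called lower. Cenpa, the centromeric histone, was at 61.3, 57.5, 75.5, 71.7 and 156 CPM in control and 18.02, 16.7, 13.2, 27.2 and 28.997 CPM in VWF-treated cultures (log2 fold change −2.02, SE 0.32, adjusted p = 0.000722). Control 16 h replicate 5 held more than 2 times the level of any other control, and without it the value was −1.69. Ccnb2, a cyclin of the G2 to M transition, went from 47.8 ± 7.59 to 12.2 ± 3.96 CPM (SD, n = 5; −1.98), and Mki67, the proliferation antigen Ki-67, from 87.7 ± 11.5 to 32.2 ± 8.39 CPM (−1.45). The origin factor Cdt1 had been lower at 3.5 h (−2.30) and was at 0.34 at 16 h. It was 1 of 10 replication genes with the interaction called upwards, and none was called downwards. The mean log2 CPM over the mitosis list was 5.21 to 5.61 in control and 3.89 to 4.60 in VWF-treated cultures. VWF replicate 5 gave the upper end of the latter range, and the other 4 lay at 3.89 to 4.04. At 3.5 h the range had been 4.57 to 5.13 in control and 4.01 to 4.79 in VWF-treated cultures. The control ranges at the 2 times did not overlap, whereas those of VWF-treated cultures did. The replication list lay at 3.97 to 4.76 at 3.5 h and 5.37 to 5.59 at 16 h in control, and at 3.28 to 4.15 and 5.69 to 5.85 in VWF-treated cultures, with no overlap between the times in either group. Without Control 16 h replicate 5, 17 of 22 mitosis genes were lower. By the interaction test 7 of the 14 were late, and for 6 the difference from 3.5 h was not shown.

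**Figure D5:**
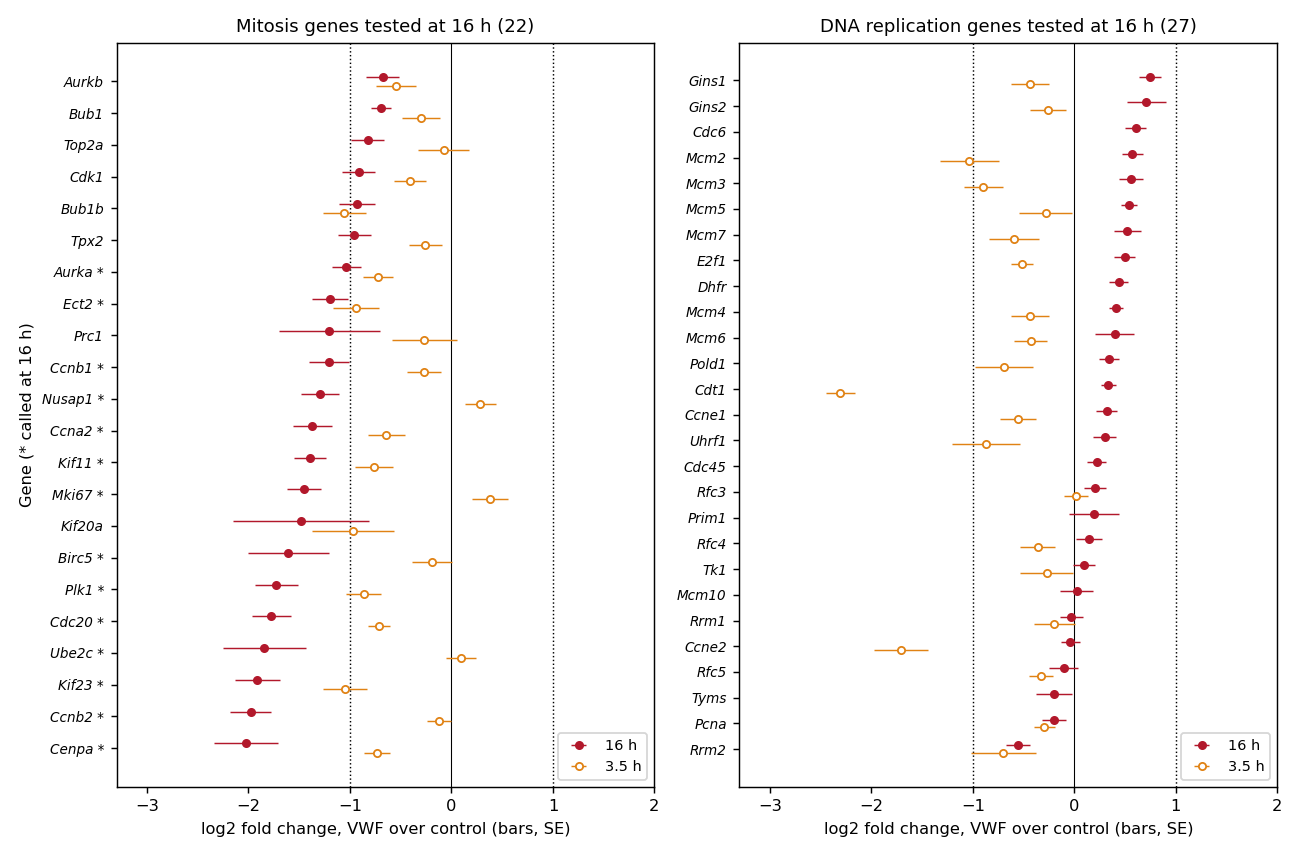
Log2 fold change of VWF over control (horizontal axis, bars are SE) for each tested gene of the mitosis list (left) and the DNA replication list (right) at 16 h (filled) and 3.5 h (open), with dotted lines at a fold of 2 and asterisks on genes called at 16 h. All 22 mitosis genes lie below 0 at 16 h and 14 pass the test, while replication genes lie between −0.55 and 0.74.

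In the 16 genes that were higher at 3.5 h and lower at 16 h, the 8 with the largest interactions included chemokines and receptors of the first wave. Ccl4, the chemokine MIP-1β, had been at 3176 ± 1039 CPM after 3.5 h of VWF against 172 ± 59.7 CPM in control (SD, n = 5). At 16 h it was at 94.8, 79.2, 66.7, 76.6 and 194 CPM in control and 18.6, 19.97, 15.2, 21.2 and 29.7 CPM in VWF-treated cultures (log2 fold change −2.29, SE 0.30, adjusted p = 0.000249; −1.94 without Control 16 h replicate 5). Ccl3, or MIP-1α, followed with 178, 167, 134, 166 and 153 CPM in control and 21.3, 28.9, 27.8, 25.1 and 37.3 CPM in VWF-treated cultures (log2 fold change −2.51, SE 0.15, adjusted p = 1.46e-06; 2.76 at 3.5 h). Cd14, the LPS co-receptor, went from a log2 fold change of 2.40 to −1.63, as VWF-treated cultures fell from 2585 ± 419 to 397 ± 31.3 CPM and controls rose from 498 ± 62.5 to 1223 ± 194 CPM (SD, n = 5). Cd83, a marker of activated antigen-presenting cells, went from 1.67 to −4.16, with 81.4, 89.2, 87.9, 79.9 and 72.03 CPM in control and 3.85, 3.48, 3.84, 4.95 and 6.95 CPM in VWF-treated cultures at 16 h. The others of these 8 were Gm6377, Gem, a small GTPase, Ednrb, an endothelin receptor, and Fnbp1l, with 16 h values of −3.34, −2.98, −2.32 and −1.27. Among the 5 genes that went the reverse way was Tmem86a, an enzyme of ether lipid breakdown, at −2.21 and then 1.59.

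Of 18 costimulatory and checkpoint genes 5 were higher and 5 lower, or 7 and 5 without Control 16 h replicate 5. With all 10 cultures the shares over all genes tested were 4.55% and 4.15%. Cd86, the ligand of CD28, fell late from 28.9 ± 8.95 to 4.36 ± 0.566 CPM (SD, n = 5; −2.74, SE 0.24), while Cd40 (1.31), Cd274, which encodes PD-L1 (1.41), and Lgals9 (1.85) were higher. Cd38, an NAD-consuming ectoenzyme used as a marker of activated macrophages, was at 1.85, 1.86, 1.01, 1.87 and 0.831 CPM in control and 37.3, 43.2, 38.5, 30.3 and 17.4 CPM in VWF-treated cultures (log2 fold change 4.47, SE 0.34, adjusted p = 5.41e-06). It had been under the expression filter at 3.5 h, at 0.522 and 3.98 CPM, and its interaction of 1.55 had an adjusted p of 0.0159.

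Part of the first wave was no longer called. Among the 753 early higher genes, 341 were tested again but not called, 237 of them with the interaction called downwards, and 173 had dropped under the filter, 134 of them with the interaction called. Over the 580 genes tested again the median effect went from 1.74 at 3.5 h to 0.68 at 16 h on the log2 scale. Because these genes were selected by their 3.5 h call, part of that fall was set by the choice. With library sizes alone the 3.5 h calls were 612 higher and 643 lower in place of 753 and 453, as the median of all genes moved to −0.22. Of 12 inflammatory cytokine genes higher at 3.5 h, 1 was still higher at 16 h, 4 were not called and 7 were under the filter, with the interaction called for 10 of these 11. Il6 was at 0.298 ± 0.107 CPM after 16 h of VWF against 75.02 ± 30.8 CPM after 3.5 h (SD, n = 5), Il12b at 0.702 ± 0.477 against 109 ± 37.03 CPM, and Nos2, the inducible nitric oxide synthase, at 0.271 ± 0.162 against 49.3 ± 9.98 CPM. The interactions were −7.07, −7.11 and −6.32. Il1b was the early cytokine still called higher: 0.984, 1.65, 1.83, 6.71 and 2.11 CPM in control and 16.5, 14.3, 18.5, 15.4 and 8.27 CPM in VWF-treated cultures (log2 fold change 2.45, SE 0.49, adjusted p = 0.00362), against 10.28 at 3.5 h. Tnf was also higher at 16 h (0.88, adjusted p = 0.00027) but under the fold threshold. Without that threshold, 4 of 11 tested cytokine genes were higher and 3 lower at an adjusted p under 0.05. By the same rule 1019 of all 7798 genes tested were higher and 1144 lower. Il18bp, the decoy that binds IL-18, was the one late cytokine gene higher (2.60, SE 0.22), and Il1rn, the IL-1 receptor antagonist, was lower (−1.51, SE 0.25). Of 22 tested feedback inhibitors of inflammatory signalling, 6 were higher and 3 lower at 16 h, beside 4.55% and 4.15% of all genes tested. Without Control 16 h replicate 5 these counts were 5 and 3. The 6 were among 16 that had been higher at 3.5 h, and were led by Socs3, which blocks STAT3 signalling (2.65 after 7.33), Irak3 (1.85) and Nfkbia (1.68). The 3 lower genes were Dusp2, a phosphatase of MAP kinases, which turned from 2.28 at 3.5 h to −1.58, and Atf3 (−1.35) and Nfkbid (−1.58), which had not been called at 3.5 h.

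Among the 453 early lower genes, 320 were tested again but not called, 204 of them with the interaction called upwards, and 63 had dropped under the filter. Over the 390 tested again the median went from −1.40 to −0.37, part of which was likewise set by selecting genes on their 3.5 h call. Gpr183, the oxysterol receptor that guides leukocytes, was at 1.05 against 46.9 CPM at 3.5 h and at 25.4, 24.02, 23.8, 22.3 and 21.8 against 64.97, 75.4, 67.4, 59.8 and 38.2 CPM at 16 h, where it was still called lower (−5.46, then −1.39). Lpar6, a lysophosphatidic acid receptor, returned from −4.65 to −0.50, Cnr2, the cannabinoid receptor of leukocytes, from −4.18 to −0.57, and Dusp6, a phosphatase of ERK, from −2.94 to 0.38. None of these 3 passed the fold threshold at 16 h.

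Metabolic lists carried few calls at 16 h, but over all genes tested only 4.55% were called higher and 4.15% lower. At those shares any list of this size would hold few calls, so the counts are not a result about metabolism. Hk2, the inducible hexokinase, was the one glycolysis gene higher (23.9, 25.7, 19.5, 20.5 and 11.1 CPM in control, 59.4, 52.5, 57.2, 42.2 and 35.5 CPM in VWF-treated cultures; log2 fold change 1.28, SE 0.23, adjusted p = 0.00193), and Pfkp, a phosphofructokinase, was the one lower (−1.59, SE 0.28), of 21 tested. Slc2a1, the glucose transporter GLUT1, stood at 0.01 (SE 0.23) and Hif1a at 0.44 (SE 0.13). None of 22 TCA cycle genes and none of 20 cholesterol synthesis genes was called by edgeR or DESeq2. At an unadjusted p under 0.05, edgeR had 6 TCA cycle genes higher and 2 lower, and 6 cholesterol synthesis genes higher and none lower. The share over all genes by that looser rule was not computed, so these counts cannot be set against the shares above. Without Control 16 h replicate 5, 1 cholesterol synthesis gene was called higher. Sod2, the mitochondrial superoxide dismutase, was higher at both times (3.64 and 3.62), with 89.2 ± 13.4 and 1099 ± 126 CPM (SD, n = 5) at 16 h. Among reported receptors for VWF and scavenger receptors, Lrp1 was at −0.40 (SE 0.12, adjusted p = 0.0341), lower but under the fold threshold, and Msr1 (1.78) and Siglece (3.49) were higher beside Marco, Siglec1 and Itgam.

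LPS-treated cultures at 16 h were compared with the same 5 controls, so the 2 comparisons share those cultures and values are set side by side only. In LPS-treated cultures 1221 genes were higher (15.3%) and 989 lower (12.4%) of 7994, a split that became 793 and 2253 with library sizes alone, a scaling that moved the median of all genes to −0.57. For VWF and then LPS the log2 fold changes over control were 8.79 and 11.52 for Ccl5, 7.34 and 5.95 for Marco, and 4.57 and 6.80 for Irf7. They were 2.45 and 8.82 for Il1b and 3.06 and 3.72 for Siglec1. Values of opposite sign were seen for Ccl3 (−2.51 and 1.75), Ccl4 (−2.29 and 2.89), Cd14 (−1.63 and 1.60), Rcan1 (−3.37 and 1.54) and Pald1 (1.84 and −4.49). For Spp1 the values were −4.68 and −0.89, for Ccl24 −8.23 and −0.96, and for Cd83 −4.16 and −0.46. The difference between the agents was not tested here.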

How the data were processed

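RNA-seq counts of the 5 VWF and 5 PBS control cultures of murine BMDMs at 16 h were analysed, with the 10 cultures at 3.5 h and 4 LPS cultures at 16 h for reference. Groups were taken from the sample labels. The deposited values were raw counts per Ensembl gene, made by the authors from paired-end reads mapped to GRCm38 and quantified with STAR, according to the study's methods. No source used here gives the STAR version, annotation, strand setting or treatment of multi-mapping reads, so reads of overlapping or near-identical genes may be split, lost or counted for the wrong one. Besides the cases named with the results, exons of Tapbp (29.02% of their length), Psmb8 (14.7%), Irf5 (14.2%), Cd274 (14.1%) and Cd9 (10.7%) overlap other gene models, and Fpr2 shares 15.4% of its 100-base windows with Gm5966.

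Genes were kept where TPM, computed from the counts and GENCODE exon lengths, reached 10 in at least 1 culture of a comparison, after the study's own filter. Counts were fitted with edgeR 4.0.16 in R 4.3.3 (TMM factors, robust quasi-likelihood F test, Benjamini-Hochberg adjustment over all genes tested), and SE is the log2 fold change divided by the square root of F. Every adjusted p in the text comes from this test. CPM used TMM factors over the 8867 genes at 10 TPM in any of the 28 cultures. Promoter windows and their coordinates came from RefSeq on GRCm38.p6, and 6140 of the 7798 genes tested at 16 h matched a window by symbol or RefSeq synonym.

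Gene lists and members were chosen with earlier results of these data known. Genes were named by rule: the 12 largest changes in each direction among protein-coding genes whose groups did not overlap and whose higher group averaged at least 10 CPM, the 8 largest late changes and the 8 largest losses of an early effect in each direction, the 8 largest reversals, the 6 most abundant in each direction, up to 4 members of each list, and 17 genes that the study names. Cd9, Pparg, Atp6v0d2, Fpr1, Rcan1, Pilra, Slamf8, Cx3cr1 and some further list members were added after their values were seen. Some genes that the rule names are not reported here. Alternatives were DESeq2 1.42.0, median-of-ratios factors, library sizes alone, other expression filters, 1 fit over all groups, a replicate block, a test against a fold of 2 and leaving out each culture. In simulated counts with the 16 h design, 88% of changes of 1.5 and 96% of changes of 3 on the log2 scale were called. There were 0 false calls among those of the 7798 genes that were left unchanged. The simulation held no deviating culture such as Control 16 h replicate 5, so these rates may not carry over to the data. No pair of cultures of the 2 groups agreed within sampling noise (lowest chi-square per degree of freedom 15.8 over 20 pairs).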

Additional observations from a re-analysis of the deposited data

Results flagged for a closer look

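Control 16 h replicate 5 lay outside the other 4 controls on several measures, by the gap to its nearest neighbour as a share of the group's range. Its mean correlation with the group was 0.900 against 0.967 to 0.969, it had counts in 16690 genes against 19184 to 19976, ribosomal protein genes took 9.52% of its counts against 4.99% to 5.76%, and its 10 most abundant genes took 16.2% against 12.6% to 13.4%. Its mean log2 CPM was lowest for the Toll-like receptor pathway (4.91 against 5.64 to 5.84), alternative activation markers (4.71 against 5.56 to 5.65), costimulation and checkpoint ligands (5.24 against 5.71 to 5.77), scavenger and reported VWF receptors (6.54 against 6.89 to 7.02), efferocytosis and TAM receptors (5.66 against 5.94 to 6.03), glycolysis (7.01 against 7.60 to 7.80) and the TCA cycle (6.36 against 6.58 to 6.61). In CPM it was highest for Bst2 (647 against 199 to 259), C1qa (1455 against 546 to 620.4), Ccl4 (194 against 66.7 to 94.8), Lpl (11864 against 5694 to 6445), Mt1 (2265 against 650.3 to 1001), Saa3 (37.8 against 2.24 to 7.40) and Tspan13 (119 against 57.7 to 60.7), and lowest for Ephx1 (72.1 against 156 to 173). Of these genes only Lpl lost its call without that culture, and why the culture differs was not tested.

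Other single cultures stood apart in fewer measures. Control 16 h replicate 4 was highest for Acod1 (12.6 against 1.26 to 4.11 CPM) and Fpr2 (2.33 against 1.06 to 1.37 CPM). VWF 16 h replicate 5 was lowest in the mean log2 CPM of arginine, nitric oxide and itaconate genes (7.11 against 7.42 to 7.54) and of macrophage identity genes (9.21 against 9.26 to 9.28), highest in that of mitosis genes (4.60 against 3.89 to 4.04), lowest for Hmox1 (1734 against 2889 to 2979.6 CPM) and highest for Ndrg1 (16.3 against 6.89 to 8.71 CPM). VWF 16 h replicate 4 was highest in the mean log2 CPM of MHC class II genes (7.34 against 6.71 to 6.83), lowest in that of cholesterol synthesis genes (4.83 against 5.09 to 5.19) and highest for Spp1 (1548 against 1035 to 1126 CPM), and replicate 3 was highest for Susd2 (25.2 against 9.79 to 11.7 CPM). In all, 30 of 170 groups of 5 values had such a culture, where chance gives about 1 in 20.

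The effect of VWF differed between 3.5 h and 16 h by the interaction test in 1171 genes. The values below are interaction coefficients on the log2 scale, and all passed the test. Among late higher genes the largest were Olfml3 (3.90), Ly6a (3.67), Tmeff1 (3.35), Ms4a4a (3.06), Siglec1 (3.03), Ms4a6b (2.95), Pald1 (2.85) and Gm5150 (2.85). Among late lower genes they were Atp2a3 (−4.42), Spp1 (−3.69), Tspan13 (−3.62), Plxdc2 (−3.44), Ndrg1 (−3.16), Ephx1 (−3.07), Plek (−2.97) and Ramp1 (−2.97). Among early increases that were smaller, not called or under the expression filter at 16 h, the largest interactions were those of Hcar2 (−8.80), Il1b (−7.80), Il12b (−7.11), Il6 (−7.07), Il1a (−6.76), Il27 (−6.70) and Nos2 (−6.32). Early decreases that were smaller at 16 h, or turned in the case of Tmem86a, included Lpar6 (4.17), Gpr183 (4.09), C130050O18Rik (3.99), Tmem86a (3.82), Cnr2 (3.64), Dusp6 (3.34) and Tent5c (3.24). Genes higher at 3.5 h and lower at 16 h were led by Ccl4 (−6.52), Cd83 (−5.82), Ccl3 (−5.25), Ednrb (−5.04), Gm6377 (−4.95), Gem (−4.78), Fnbp1l (−4.41) and Cd14 (−4.01).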

How the results depend on the processing

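With all choices but 1 kept, the 679 calls at 16 h (355 higher, 324 lower) became 1362 (613 and 749) with edgeR's own expression filter and 1378 (647 and 731) with no filter, where more genes were tested. They became 354 (218 and 136) when tested against a fold of 2, and 2163 (1019 and 1144) with no fold threshold. In the same order the interaction gave 1972, 1904, 603 and 2807 genes, and LPS at 16 h 4087, 4224, 1470 and 4293. VWF at 3.5 h gave 2099, 2366 and, with no fold threshold, 3578. With no fold threshold, 531 genes were higher and 462 lower at both times, 194 and 251 were late, and 123 and 156 changed direction. With library sizes alone, 103 genes were lower at both times in place of 65, and the 16 h split was 329 and 356. DESeq2 called 362 and 332. Leaving out 1 culture gave 643 to 710 genes at 16 h (335 to 369 higher, 301 to 341 lower), 1141 to 1211 in the interaction, 1174 to 1216 at 3.5 h and 2110 to 2309 for LPS. It gave 210 to 227 and 61 to 76 at both times, 60 to 70 and 101 to 129 late, and 4 to 7 and 14 to 17 with opposite directions. Replicate numbers were not shown to pair the cultures (correlation of deviations −0.60 to 0.63 over 5 pairs, 2 of 5 highest with their own number), and a fit with the replicate block called 669 genes (359 and 310). No gene called at 16 h turned direction in any of these fits. Of 120 named genes called at 16 h, 104 kept their call in the test against a fold of 2. In the other fits Lpl alone lost its call (−0.91 without Control 16 h replicate 5). Mrc1 gained one with the replicate block (−1.02) and without VWF 16 h replicate 5 (−1.18). Searching the gene's own strand only, the ISRE core stood in 13.1% of higher, 2.09% of lower and 2.18% of tested genes. The 5 cultures a group limit the precision, and low counts do so for Ccl24, Ly6i and Cfb.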
